A study of Mus musculus with 12 samples.

Results

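Glomeruli of untreated BALB/cByJcl (ByJcl) mice were compared with glomeruli of untreated BALB/cAJcl (AJcl) mice over all genes of the deposited counts. The comparison used the 6 untreated libraries, 3 per substrain, of the 12 libraries of the series. BALB/c is an albino inbred mouse strain, and AJcl and ByJcl are substrains bred separately and sold by the same Japanese breeder. All animals were males, bought at 8 weeks of age, and the 6 libraries called baseline are labelled as untreated. The other 6 libraries came from mice of the same substrains taken at Day 5 after a single retro-orbital dose of 10 mg/kg adriamycin (ADR), an anthracycline that injures podocytes. They were used here to estimate the spread and to measure the baseline differences again in other animals. The labels give replicate numbers but do not state whether each library came from 1 mouse, so p-values measure the spread between these libraries only. Positive log2 fold changes (log2FC) denote higher expression in ByJcl.

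The glomerulus is the filtering tuft of the kidney. Its capillaries are lined by endothelial cells, held together by mesangial cells and wrapped by podocytes, whose foot processes are joined by the slit diaphragm and anchored by integrins to a basement membrane of type IV collagen and laminin. Inbred substrains that are bred apart share most of their genome and can differ at single loci, among them the histocompatibility region and families of tandem gene copies.

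Glomeruli were captured with magnetic beads perfused into the capillaries, and poly(A)-selected RNA was sequenced with a strand-specific protocol. Total counts were between 42198416 and 54687045 per baseline library, and each ByJcl library was deeper than each AJcl library, so depth and substrain coincide. With all libraries thinned to the smallest total, 26 genes were called, each of them among the 27 described next. Levels are given as CPM, counts scaled to a common library size, after TMM normalization, which sets that size from the bulk of genes, and values in a series follow replicates 1, 2 and 3. The podocyte markers were abundant in all 6 libraries. Podxl, the sialoprotein of the podocyte surface, was at 6180, 8531 and 6913 CPM in AJcl and at 9015, 7772 and 8401 CPM in ByJcl. Tubular RNA was carried along in unequal amounts. The summed level of 25 proximal tubule genes was 9615, 4726 and 14110 CPM in AJcl and 2004, 7790 and 6196 CPM in ByJcl, lowest in ByJcl replicate 1 and highest in AJcl replicate 3.

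Few genes differed beyond the spread between libraries. At a Benjamini-Hochberg adjusted p below 0.05, the quasi-likelihood test of edgeR called 27 of 17002 tested genes (0.159%), and 8.34% had an unadjusted p below 0.05. Expression was higher in ByJcl for 23 of these genes (0.135% of those tested) and lower for 4 (0.0235%). The libraries of the substrains did not overlap for any of the 27, against 14.5% of all tested genes, 9.19% with ByJcl above AJcl and 5.29% with ByJcl below. Large fold changes alone were common, since 1329 tested genes differed by more than 2-fold and 1306 of them were not called. DESeq2's Wald test called 101 genes (0.594%), 71 higher (0.418%) and 30 lower (0.176%), including all 27. The edgeR count was 12 without AJcl replicate 1, 13 without AJcl replicate 3, 13 without ByJcl replicate 3, and 17 without ByJcl replicate 1 or without ByJcl replicate 2. Over 17 alternative settings, 10 genes were called in each: Ubtd1, H2-Q6, Otud3, Ppp1r3a, Galk2, Arl2bp, Oas1b, Oas1a, Serpina1b and Zfp970.

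**Figure D1:**
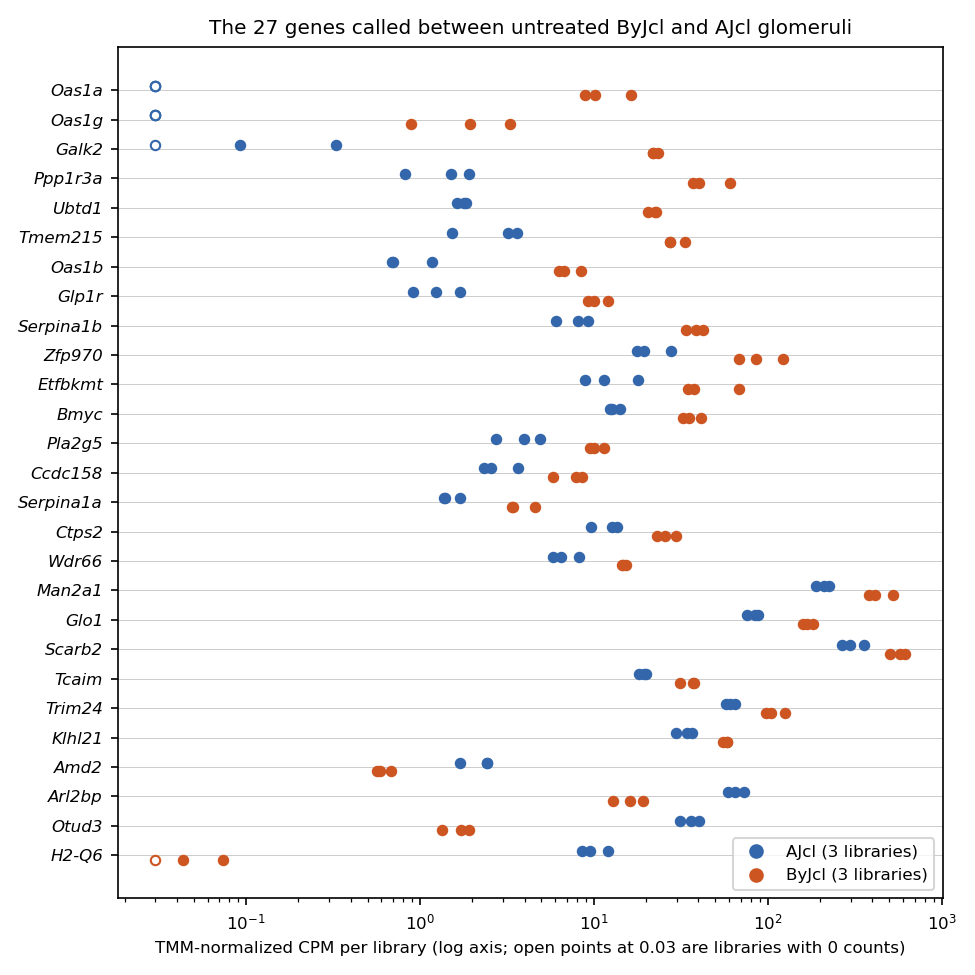
TMM-normalized CPM (log axis) of the 27 called genes in each untreated library, with AJcl in blue and ByJcl in orange, 1 point per library and open points at the left edge for libraries with 0 counts. In each row the 3 points of one substrain lie apart from the 3 of the other, and 23 rows have ByJcl on the right.

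**Figure D2:**
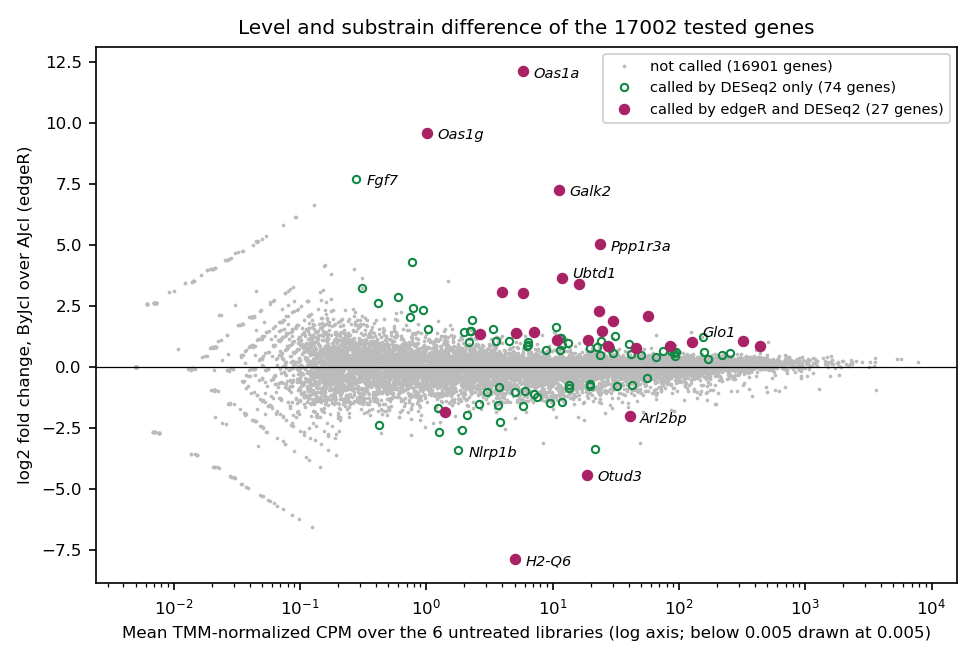
Mean TMM-normalized CPM over the 6 untreated libraries (log axis) against the log2FC of ByJcl over AJcl for the 17002 tested genes, with the 27 genes called by edgeR and DESeq2 filled and the 74 genes called by DESeq2 only as open circles. Most genes of large log2FC and low CPM are not called, and H2-Q6, Oas1a, Oas1g and Galk2 stand farthest from 0 among the calls.

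The most complete differences lay in the oligoadenylate synthetase cluster of chromosome 5. Active enzymes of this interferon-induced family make a short adenylate messenger on sensing double-stranded RNA, and this activates RNase L. Whether each member is active was not measured here. The 300 bases around the start of each gene that RefSeq lists are shown for Oas1a, Oas1g and Oas1c, because the members carry the same interferon-type motif at different places. The sequences are from GRCm38.p6, the C57BL/6J reference and not a BALB/c genome, and run 5′ to 3′ on the sense (minus) strand with 250 bases before the start. Capitals mark the run covered by matches to GAAANNGAAA, searched on both strands, where 2 matches overlap in each run.
Oas1a, chr5:120907476-120907775: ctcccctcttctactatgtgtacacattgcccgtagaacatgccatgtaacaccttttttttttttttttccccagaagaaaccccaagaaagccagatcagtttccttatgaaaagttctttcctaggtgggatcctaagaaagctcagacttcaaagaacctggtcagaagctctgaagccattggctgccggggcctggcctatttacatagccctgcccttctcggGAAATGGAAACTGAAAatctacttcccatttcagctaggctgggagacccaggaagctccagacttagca
Oas1g, chr5:120887564-120887863: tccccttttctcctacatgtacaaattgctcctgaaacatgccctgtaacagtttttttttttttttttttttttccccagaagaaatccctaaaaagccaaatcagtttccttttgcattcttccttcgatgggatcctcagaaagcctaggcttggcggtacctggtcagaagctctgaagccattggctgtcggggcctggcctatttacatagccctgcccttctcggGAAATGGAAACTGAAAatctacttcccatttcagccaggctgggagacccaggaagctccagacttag
Oas1c, chr5:120812465-120812764: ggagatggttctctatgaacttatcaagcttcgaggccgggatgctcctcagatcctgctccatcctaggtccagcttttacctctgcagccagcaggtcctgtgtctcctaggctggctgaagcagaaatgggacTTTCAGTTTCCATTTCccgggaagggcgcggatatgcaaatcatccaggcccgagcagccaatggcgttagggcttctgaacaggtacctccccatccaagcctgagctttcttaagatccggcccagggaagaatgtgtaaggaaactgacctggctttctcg
In Oas1a and Oas1g the run read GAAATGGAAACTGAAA and ended 5 and 3 bases before the start. In Oas1c its reverse complement, TTTCAGTTTCCATTTC, ended 99 bases before the start. The motif was present in 3.44% of 32851 promoters of the same length. A match describes letters in the reference only, and no entry was used for Oas1b.

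No read was counted on Oas1a in AJcl, whereas the ByJcl libraries held 466, 768 and 486 counts, or 10.1, 16.3 and 8.95 CPM. The ByJcl mean is 171-fold higher than 3 counts per library, used as a floor (Benjamini-Hochberg adjusted p = 0.00103 by edgeR's quasi-likelihood test). This floor covers counting error only and takes counts as independent. Most small counts in the baseline libraries were even numbers, so they may not be independent. The folds over the floor may then be too high and are not lower bounds. Oas1g was likewise at 0 counts in all AJcl libraries and held 41, 156 and 105 counts in ByJcl. Its ByJcl mean was 29.6-fold higher than the floor (adjusted p = 0.0390, edgeR). Its call was lost in 9 of 17 alternatives, with an adjusted p of up to 0.212, among them those without AJcl replicate 1, 2 or 3 and without ByJcl replicate 2 or 3. The GENCODE transcripts of Oas1g share 31.8% of their 100-base windows with Oas1a, and 9.36% of the windows of Oas1a are shared with Oas1g, so the level of Oas1g is uncertain.

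Oas1b, on the opposite strand, was detected in both substrains, at 0.689, 0.704 and 1.18 CPM in AJcl and at 6.29, 8.43 and 6.76 CPM in ByJcl. It was called (log2FC = 3.06, SE = 0.27, adjusted p = 0.000468, edgeR), and none of its windows were shared with another gene. Oas1c, which starts beside Oas1b and is read in the other direction, was at 1.06, 0.853 and 1.28 CPM in AJcl and at 2.93, 3.24 and 2.58 CPM in ByJcl. Its libraries did not overlap, but its log2FC of 1.45 (SE 0.26) passed the threshold only in DESeq2 (adjusted p = 0.0959 in edgeR and 0.000463 in DESeq2). Oas2, at the far end of the cluster, had a log2FC of 1.57 (SE 0.57) with no overlap between libraries and was called by neither edgeR (adjusted p = 0.573) nor DESeq2 (adjusted p = 0.227). Oas3, which lies between Oas2 and Oas1c, overlapped between the substrains, at 0.171 to 0.735 CPM in AJcl and 0.239 to 1.33 CPM in ByJcl (log2FC 0.53, SE 0.69, adjusted p = 0.816 in edgeR and 0.849 in DESeq2), and its log2FC was -0.34 without ByJcl replicate 2. In GRCm39 the other 5 genes lie in the order Oas2, Oas1c, Oas1b, Oas1g, Oas1a between 120868398 and 121046449.

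H2-Q6, a nonclassical class I major histocompatibility gene of the Qa region on chromosome 17 (35643777 to 35655332, GRCm39), had the largest decrease among the calls. It had 412, 562 and 417 counts in AJcl and 2, 0 and 4 in ByJcl, which is 9.46, 12.0 and 8.60 CPM against 0.0434, 0 and 0.0737 CPM. It was called (log2FC = -7.86, SE = 0.48, adjusted p = 2.26e-05, edgeR). The size of the fold rests on 6 counts in ByJcl against 1391 in AJcl. Scaled to TMM library size, this is a ratio of 246 with an exact 95% interval of 113 to 673. The interval covers counting error only and takes counts as independent. Since most small counts were even numbers, the interval may be too narrow. Its transcripts share 9.05% of their 100-base windows with other genes, most of them with H2-Q7, which had 0 counts in all 6 libraries. Of 24 tested genes of class I presentation, 21 had a log2FC above 0 and 3 below, with a median of 0.25 against 0.01 for all tested genes, and H2-Q6 was the 1 called member, against 0.159% of all tested genes called and 0.0235% called lower. With the level of proximal tubule genes in the fit, the median was 0.10, with 17 genes above 0 and 7 below. Without this covariate, the genes below 0 besides H2-Q6 were H2-T3 (-0.04) and H2-T22 (-0.01), and neither was called. H2-K1, a classical class I chain, was at 203, 191 and 165 CPM in AJcl and at 254, 269 and 229 CPM in ByJcl, with no overlap, and was not called (log2FC 0.43, adjusted p = 0.666, edgeR).

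Galk2, which phosphorylates N-acetylgalactosamine, had 4, 0 and 16 counts in AJcl and 1079, 1039 and 1182 in ByJcl. The AJcl mean was 0.141 ± 0.170 CPM and the ByJcl mean 22.4 ± 0.885 CPM (SD, n = 3), and the gene was called (log2FC = 7.26, SE = 0.54, adjusted p = 0.000111, edgeR). The transcript was close to undetected in AJcl and even across the ByJcl libraries. Downstream of Galk2 on chromosome 2, Fgf7, a growth factor for epithelial cells, was at 0 counts in all AJcl libraries. Fgf7 held 26, 26 and 30 counts in ByJcl, 8.06-fold higher than the floor, which takes counts as independent. Fgf7 was not called by edgeR (adjusted p = 0.0675) and was called by DESeq2 (adjusted p = 7.19e-05). Fam227b, which overlaps the end of Galk2 on the opposite strand, was also at 0 counts in AJcl and at 0.108, 0.0423 and 0.129 CPM in ByJcl. Over all genes in the files, 3 had 0 counts in each library of one substrain and at least 10 in each of the other. These were Oas1a, Oas1g and Fgf7, all present in ByJcl.

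Ppp1r3a, which targets protein phosphatase 1 to glycogen in muscle, was at 1.52, 1.92 and 0.825 CPM in AJcl and at 37.4, 40.4 and 60.8 CPM in ByJcl. The groups did not overlap (log2FC = 5.02, SE = 0.32, adjusted p = 3.05e-05, edgeR). Of 29 tested genes of galactose and glycogen metabolism, Galk2 and Ppp1r3a were called by edgeR and by DESeq2, and no other member was, against 0.159% (edgeR) and 0.594% (DESeq2) of all tested genes. The list was balanced, with 15 genes above 0, 14 below and a median log2FC of 0.01. Ugp2, which makes UDP-glucose for glycogen synthesis, did not overlap either and lay lower in ByJcl, but its log2FC of -0.24 was not called (adjusted p = 0.614, edgeR).

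On chromosome 17, 2 neighbouring genes were called. Glo1, the glyoxalase that detoxifies methylglyoxal, was at 88.0, 84.7 and 75.9 CPM in AJcl and at 183, 161 and 168 CPM in ByJcl, a ratio of the means of 2.06 (log2FC 1.04, SE 0.12, adjusted p = 0.00512, edgeR). Glp1r, the receptor of the incretin hormone GLP-1, was at 1.24, 0.917 and 1.69 CPM in AJcl and at 12.0, 10.1 and 9.26 CPM in ByJcl (log2FC 3.02, SE 0.35, adjusted p = 0.00436, edgeR). Glo1 lost its call without AJcl replicate 3 (adjusted p = 0.0527, edgeR) and Glp1r lost its call without AJcl replicate 1 (adjusted p = 0.0718, edgeR). No tested gene lay wholly between them. Of the uncalled tested genes within 1 Mb, 12 lay above 0 and 10 below around Glo1, and 10 above and 7 below around Glp1r. Libraries that did not overlap were found for 27.3% and 35.3% of them (6 genes each), against 14.5% of all tested genes with a position, and an unadjusted edgeR p below 0.05 for 13.6% and 17.6% (3 genes each), against 8.38%. Btbd9, next to Glo1, was at 53.8, 60.2 and 53.8 CPM in AJcl and at 76.3, 70.6 and 79.2 CPM in ByJcl (log2FC 0.43, SE 0.09), which DESeq2 called (adjusted p = 0.00974) and edgeR did not (adjusted p = 0.190). Dnah8, a dynein heavy chain gene that overlaps the start of Glo1 on the opposite strand, was not called (log2FC = 0.83, SE = 0.28, adjusted p = 0.559, edgeR). Of 11 tested glyoxalase and aldehyde-clearing genes, Glo1 was the called one, against 0.159% of all tested genes. Of the 11, 3 were above 0 and 8 below, with a median log2FC of -0.14.

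Besides H2-Q6, 3 genes were lower in ByJcl. Otud3, a deubiquitinase on chromosome 4, was at 31.2, 36.2 and 40.1 CPM in AJcl and at 1.35, 1.93 and 1.73 CPM in ByJcl (log2FC -4.42, SE 0.27, adjusted p = 2.26e-05, edgeR). Its neighbour Pla2g5, a secreted phospholipase A2 gene 30037 bases away, moved in the opposite direction, from 3.97, 2.73 and 4.89 CPM in AJcl to 11.4, 10.0 and 9.56 CPM in ByJcl (log2FC 1.42, SE 0.21, adjusted p = 0.0280, edgeR). The 2 genes thus lay side by side with opposite differences. The Pla2g5 call was lost without AJcl replicate 1 and without ByJcl replicate 1, 2 or 3, with an adjusted p of up to 0.240 over the alternatives (edgeR). Arl2bp, which binds the small GTPase ARL2, was at 73.0, 59.0 and 64.6 CPM in AJcl and at 12.8, 16.2 and 19.3 CPM in ByJcl (log2FC -2.02, SE 0.15, adjusted p = 0.000124, edgeR). Amd2, a copy of the S-adenosylmethionine decarboxylase gene of polyamine synthesis, had the weakest of the 4 decreases (log2FC -1.84, SE 0.29, adjusted p = 0.0388, edgeR). It shares 72.9% of its windows with Amd1, so its level is uncertain, and its call was lost without any 1 of the 6 libraries (adjusted p of up to 0.235 over the alternatives, edgeR).

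Ubtd1, a ubiquitin-domain gene on chromosome 19, had the smallest adjusted p of all genes. It was at 1.84, 1.79 and 1.63 CPM in AJcl and at 22.6, 22.8 and 20.5 CPM in ByJcl (log2FC = 3.64, SE = 0.15, adjusted p = 7.32e-07, edgeR). Its spread was small in both substrains, with an SD of 0.110 CPM in AJcl and 1.27 CPM in ByJcl (n = 3). Tmem215, a transmembrane protein gene, was at 3.22, 3.63 and 1.53 CPM in AJcl and at 27.4, 27.4 and 33.4 CPM in ByJcl (log2FC 3.40, SE 0.40, adjusted p = 0.00512, edgeR), and it lost its call without AJcl replicate 1 (adjusted p = 0.0593, edgeR).

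Of the serine protease inhibitors of the alpha-1-antitrypsin family on chromosome 12, Serpina1b was at 9.21, 6.08 and 8.14 CPM in AJcl and at 38.8, 42.7 and 33.8 CPM in ByJcl (log2FC 2.30, SE 0.24, adjusted p = 0.00236, edgeR). Serpina1a followed at 1.40, 1.71 and 1.38 CPM in AJcl and 3.43, 4.59 and 3.39 CPM in ByJcl (log2FC 1.34, adjusted p = 0.0496, edgeR), a call that was made in 2 of the 17 alternatives and was lost without any 1 of the 6 libraries (adjusted p of up to 0.308). Serpina1d and Serpina1e did not overlap between substrains either and were higher in ByJcl, with log2FC of 2.34 and 3.25. DESeq2 called both (adjusted p = 7.28e-05 and 0.0136) and edgeR neither (adjusted p = 0.0658 and 0.273). These 4 genes each share 7.29% or more of their transcript windows with other genes, and the annotated span of Serpina1b covers Serpina1d, so the split of counts among them is uncertain. Zfp970, a zinc finger gene of uncertain level that shares 30.8% of its windows with other genes, rose from 27.9, 19.5 and 17.8 CPM in AJcl to 85.4, 68.7 and 122 CPM in ByJcl (log2FC 2.08, SE 0.24, adjusted p = 0.00479, edgeR).

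The 10 other called genes had log2FC between 0.77 and 1.89. Scarb2, the lysosomal receptor that delivers glucocerebrosidase, was at 298, 360 and 268 CPM in AJcl and at 579, 503 and 619 CPM in ByJcl (log2FC 0.88, SE 0.13, adjusted p = 0.0253, edgeR). Man2a1, a Golgi mannosidase of N-glycan processing, was at 189, 225 and 210 CPM in AJcl and at 382, 412 and 524 CPM in ByJcl (log2FC 1.08, SE 0.17, adjusted p = 0.0442, edgeR). Trim24, a chromatin-binding corepressor of retinoid receptors, had a log2FC of 0.84 (SE 0.11), and Tcaim, a mitochondrial protein gene, 0.88 (SE 0.12). Neither gene's libraries overlapped between the substrains, and both had an edgeR adjusted p of 0.0145. Etfbkmt, which methylates the electron transfer flavoprotein in mitochondria, was at 11.5, 17.9 and 8.88 CPM in AJcl and at 35.0, 37.8 and 68.7 CPM in ByJcl (log2FC 1.89, SE 0.29, adjusted p = 0.0320, edgeR). Its neighbour Resf1, a regulator of silenced retroelements, was at 82.2, 124 and 68.8 CPM in AJcl and at 207, 213 and 229 CPM in ByJcl and was called by DESeq2 only (adjusted p = 0.0842 in edgeR and 2.57e-05 in DESeq2). Ctps2, of cytidine nucleotide synthesis, Klhl21, Wdr66, Ccdc158 and Bmyc complete the list, with log2FC between 0.77 and 1.48, all higher in ByJcl. These 10 genes lost their call in 4 to 13 of the 17 alternatives, including the fits without AJcl replicate 3 and without ByJcl replicate 3. All of them except Klhl21 were lost without AJcl replicate 1 as well. The highest adjusted p over the alternatives was 0.129 for Trim24 and Tcaim, 0.148 for Scarb2, 0.240 for Etfbkmt, 0.292 for Man2a1 and 0.308 for Bmyc (edgeR).

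The calls were spread over 11 chromosomes, with 6 of the 27 on chromosome 5 and 4 each on chromosomes 4 and 17. Within 1 Mb of another call lay 11 of the 27: the Serpina1 pair, Glo1 with Glp1r, Otud3 with Pla2g5, the 3 Oas1 genes and Scarb2 with Ccdc158. The surroundings of the calls did not stand apart as a whole. Of 566 uncalled tested genes within 1 Mb of a call, 15.4% had libraries that did not overlap, against 14.5% of all tested genes with a position, and 7.95% had an unadjusted edgeR p below 0.05 against 8.38%. Stbd1, a glycogen-binding protein gene between Scarb2 and Ccdc158, was at 69.5, 84.9 and 40.9 CPM in AJcl and at 120, 111 and 132 CPM in ByJcl (log2FC 0.89, SE 0.35, adjusted p = 0.577, edgeR). Zfp445, a zinc finger gene beside Tcaim that maintains genomic imprints, had a log2FC of 0.61 (SE 0.12) that only DESeq2 called (adjusted p = 0.112 in edgeR and 0.00169 in DESeq2).

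The genes that DESeq2 called and edgeR did not numbered 74, with 48 higher and 26 lower in ByJcl. Each of them had libraries that did not overlap, against the same 14.5% of all tested genes, and an unadjusted edgeR p below 0.05. Nlrp1b, the inflammasome sensor cleaved by anthrax lethal factor, was at 3.65, 3.22 and 3.01 CPM in AJcl and at 0.347, 0.0847 and 0.479 CPM in ByJcl (log2FC -3.42, SE 0.63, adjusted p = 0.100 in edgeR and 3.18e-06 in DESeq2). Cd53, a tetraspanin of leukocytes, was at 18.4, 19.3 and 13.9 CPM in AJcl and at 6.16, 6.77 and 6.37 CPM in ByJcl (log2FC -1.42, adjusted p = 0.150 in edgeR and 0.000158 in DESeq2). Elovl6, which elongates long-chain fatty acids, was lower in ByJcl (log2FC -0.74), and Igfbp2, an insulin-like growth factor binding protein, was higher (log2FC 1.08). Both missed the edgeR threshold (adjusted p = 0.114 and 0.112) and passed that of DESeq2 (adjusted p = 0.000414 each).

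Interferon-stimulated genes lay on the ByJcl side beyond the Oas1 cluster, though most members were not called. All 39 tested members had a log2FC above 0, with a median of 0.49, and the 3 members called by edgeR were Oas1a, Oas1b and Oas1g, against 0.135% of all tested genes called higher. DESeq2 called 6 of the 39, against 0.418%. These were Oas1a, Oas1b, Oas1c and Oas1g of the cluster and, outside it, Usp18 and Ifit3 (adjusted p = 0.0452 for Ifit3, DESeq2). With the level of proximal tubule genes in the fit, 37 of the 39 were above 0. Every ByJcl library lay above every AJcl library for 24 of the 39, against 9.19% of all tested genes. Usp18, which restrains interferon receptor signalling, was at 9.05, 8.85 and 8.45 CPM in AJcl and at 17.6, 21.7 and 13.6 CPM in ByJcl (log2FC 1.00, adjusted p = 0.193 in edgeR and 0.00386 in DESeq2). Ifit2, which binds viral RNA, was at 43.2, 42.4 and 35.1 CPM in AJcl and at 56.7, 58.7 and 53.8 CPM in ByJcl, with no overlap and no call (log2FC 0.49, adjusted p = 0.386, edgeR). The summed level of the list was 885, 878 and 746 CPM in AJcl and 1055, 1287 and 1023 CPM in ByJcl, highest in ByJcl replicate 2.

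Antigen presentation by class II molecules showed the highest median of the lists examined. The 11 tested class II genes all had a log2FC above 0 with a median of 1.15, and 9 of them did not overlap, all with ByJcl higher, against 9.19% of all tested genes. None was called by edgeR, 8 had an unadjusted edgeR p below 0.05 against 8.34% of all tested genes, and DESeq2 called 5, against 0.418% called higher over all tested genes. H2-Ea, an alpha chain, was at 8.08, 6.74 and 6.39 CPM in AJcl and at 12.4, 14.5 and 21.6 CPM in ByJcl (log2FC 1.19, SE 0.25, adjusted p = 0.193 in edgeR and 0.00193 in DESeq2). Ciita, the transactivator of these genes, was at 0.689, 1.34 and 0.886 CPM in AJcl and at 2.52, 4.95 and 3.56 CPM in ByJcl (adjusted p = 0.503 in edgeR and 0.0473 in DESeq2). Cd74, the invariant chain, had a log2FC of 1.26 (adjusted p = 0.220 in edgeR and 0.00225 in DESeq2). In bulk RNA, more cells of a type and more RNA per cell cannot be told apart, and class II genes are read mainly in antigen-presenting cells.

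Myeloid markers were not called, by edgeR or by DESeq2. Of 20 tested members 19 had a log2FC above 0, with a median of 0.75, and 9 lay higher in every ByJcl library than in every AJcl library, against 9.19% of all tested genes. Their summed level was 183, 186 and 155 CPM in AJcl and 217, 256 and 284 CPM in ByJcl, and the class II sum was 72.4, 59.9 and 58.9 CPM against 104, 146 and 184 CPM. An unadjusted edgeR p below 0.05 was found for 7, against 8.34% of all tested genes. Ptprc, the CD45 antigen of leukocytes, was at 8.73, 7.96 and 5.61 CPM in AJcl and at 14.03, 16.6 and 19.9 CPM in ByJcl (log2FC 1.18, adjusted p = 0.548, edgeR). Csf1r, the receptor that macrophages depend on, had a log2FC of 0.09, and Cd53 was lower as given above. The 13 tested lymphocyte genes had a median of 0.16, which ranged from -0.16 to 0.45 over the alternatives. The part of myeloid cells in the class II and interferon differences was not tested. Of 16 inflammasome genes, 12 were above 0 and the median was 0.54. Nlrp3, an inflammasome sensor, had a log2FC of 1.60 (adjusted p = 0.573, edgeR), while Nlrp1b had the lowest log2FC of the list. Nlrp3 was at 0.0459, 0.299 and 0.330 CPM in AJcl and at 0.477, 0.635 and 0.958 CPM in ByJcl. AJcl replicate 1 was thus below the level of 3 counts. Naip1, Naip6 and Nlrc4 of this list also lay below 1 CPM in every library.

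**Figure D3:**
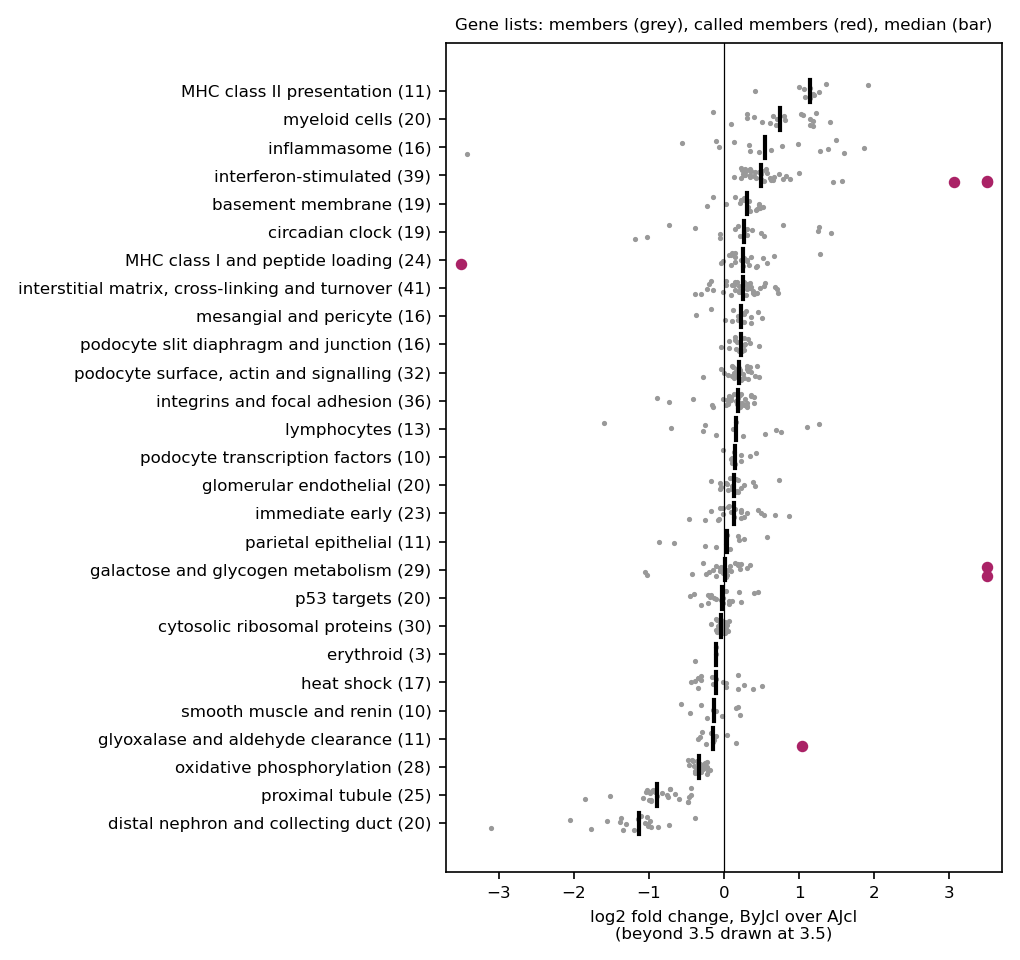
log2FC of ByJcl over AJcl for the tested members (grey points) and the median (bar) of the gene lists, with genes called by edgeR in red and the number of tested genes in parentheses. MHC class II has the highest median (1.15), the distal nephron the lowest (-1.13), and the red points belong to 4 lists.

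Podocyte genes were not called, by edgeR or by DESeq2, and as a group lay slightly above 0. Of 58 tested members 54 had a log2FC above 0, with a median of 0.20 against 0.01 for all tested genes. With the level of proximal tubule genes in the fit, 44 were above 0 and 14 below, with a median of 0.11. Among the 58, 9 (15.5%) did not overlap, all with ByJcl higher, against 14.5% of all tested genes in either direction and 9.19% with ByJcl higher. An unadjusted edgeR p below 0.05 was found for 6 (10.3%), against 8.34% of all tested genes. Both shares were near those of all tested genes in either direction. Their summed level was 43210, 57630 and 45410 CPM in AJcl and 60190, 54120 and 58020 CPM in ByJcl, so AJcl replicate 2 lay within the range of ByJcl. Wt1, the transcription factor that maintains podocyte identity, was at 399, 541 and 403 CPM in AJcl and at 514, 465 and 513 CPM in ByJcl (log2FC 0.15, SE 0.20, adjusted p = 0.817, edgeR). Nphs1, which encodes nephrin of the slit diaphragm, was at 1090, 1669 and 1209 CPM in AJcl and at 1630, 1449 and 1603 CPM in ByJcl (log2FC 0.24, SE 0.24, adjusted p = 0.745, edgeR). Both genes overlapped between the substrains, with AJcl replicate 2 the highest library for each. Inf2, a formin of the podocyte actin cytoskeleton, did not overlap, at 187, 266 and 205 CPM in AJcl and 303, 303 and 300 CPM in ByJcl (log2FC 0.46, SE 0.15, adjusted p = 0.530, edgeR).

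Matrix and integrin genes had a similar median, 0.21, and 81 of 96 tested genes had a log2FC above 0. The libraries of 28 (29.2%) did not overlap, all with ByJcl higher, against 9.19% of all tested genes. None was called by edgeR, 14 (14.6%) had an unadjusted edgeR p below 0.05 against 8.34% of all tested genes, and DESeq2 called Loxl1, a cross-linker of elastic fibres, which was at 7.74, 9.43 and 8.82 CPM in AJcl and at 14.8, 11.6 and 15.8 CPM in ByJcl (log2FC 0.70, SE 0.15, adjusted p = 0.193 in edgeR and 0.00549 in DESeq2). The basement membrane list had a median of 0.30. Col4a1, a collagen IV chain made by endothelial and mesangial cells, was at 426, 573 and 616 CPM in AJcl and at 630, 781 and 649 CPM in ByJcl (log2FC 0.35, adjusted p = 0.641, edgeR). Col4a4, a chain of the mature basement membrane made by podocytes, was at 394, 743 and 590 CPM in AJcl and at 849, 789 and 766 CPM in ByJcl (log2FC 0.48, adjusted p = 0.577, edgeR).

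Tubular genes lay below 0 in every case. All 25 proximal tubule genes and all 20 distal nephron and collecting duct genes had a log2FC below 0, with medians of -0.89 and -1.13. None was called by edgeR or DESeq2, and 2 of 25 and 5 of 20 had an unadjusted edgeR p below 0.05, against 8.34% of all tested genes. Libraries that did not overlap were found for 1 proximal gene and for 6 (30.0%) of the distal genes, all lower in ByJcl, against 5.29% of all tested genes. The spread between libraries was wide. Calb1, the calcium-binding protein of the distal convoluted tubule, was at 80.8, 44.3 and 142 CPM in AJcl and at 2.21, 9.84 and 18.9 CPM in ByJcl (log2FC -3.10, SE 0.81, adjusted p = 0.424, edgeR). Slc22a8, an organic anion transporter of the proximal tubule, was at 69.1, 34.1 and 143 CPM in AJcl and at 5.51, 28.7 and 33.7 CPM in ByJcl (log2FC -1.85, SE 0.74, adjusted p = 0.583, edgeR). The 28 oxidative phosphorylation genes, abundant in tubules, were all below 0 with a median of -0.33, with no call by edgeR or DESeq2 and 16 genes at an unadjusted edgeR p below 0.05, though none had libraries that did not overlap. When the mean level of the proximal tubule list was added to the fit as a covariate, the podocyte median was 0.11 instead of 0.20, the distal median -0.26 instead of -1.13 and the oxidative phosphorylation median -0.22 instead of -0.33. The medians of class II (1.07), myeloid (0.87) and interferon-stimulated genes (0.46) stayed near their values without it, while that of class I genes was 0.10 instead of 0.25. Under this covariate 33 genes were called, 25 of them among the 27. Calb1 and Nlrp1b, both lower in ByJcl, were among the genes added.

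**Figure D4:**
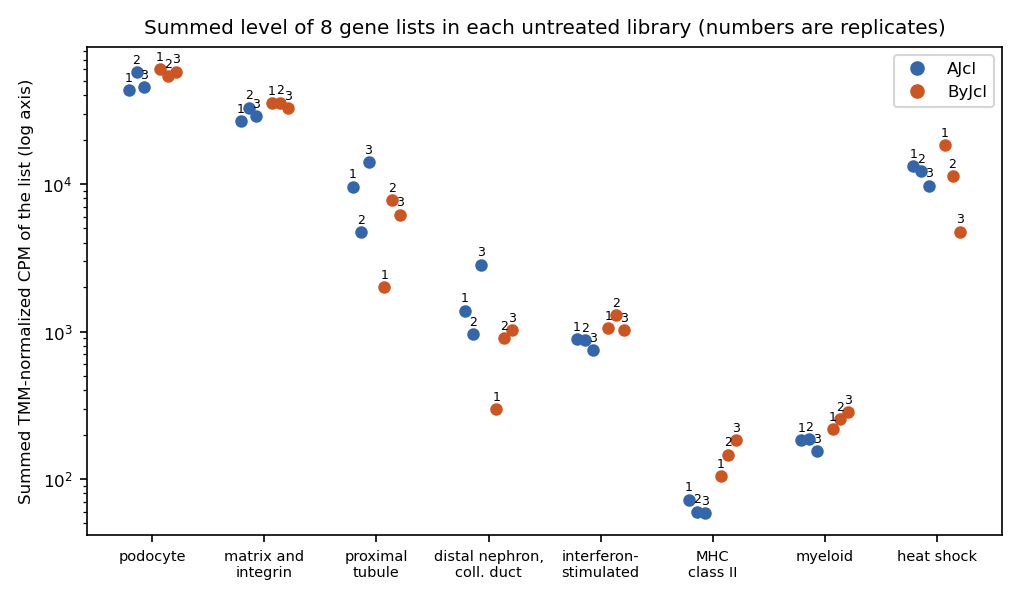
Summed TMM-normalized CPM (log axis) of 8 gene lists in each untreated library, AJcl in blue and ByJcl in orange, with the replicate number above each point. The tubular sums and the heat shock sum vary several-fold within a substrain, while the 3 ByJcl points of the interferon-stimulated, MHC class II and myeloid lists lie above the 3 AJcl points.

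The 10 genes that varied most within the substrains, among those of at least 10 CPM on average, included a pair of heat shock genes. Hspa1b, an inducible HSP70 chaperone, was at 1163, 1033 and 236 CPM in AJcl and at 2645, 540 and 7.55 CPM in ByJcl, and its near-identical paralog Hspa1a was at 883, 750 and 92.9 CPM and at 1806, 135 and 9.76 CPM. The next genes in order were Slc12a3, Pvalb, Abca13, Ugt3a1, Cyp2a4, Cyp2a5, Mogat1 and Aqp2, of which Slc12a3, Pvalb and Aqp2 mark distal tubule and collecting duct. Slc12a3, the thiazide-sensitive sodium chloride cotransporter, was at 62.0, 75.2 and 267 CPM in AJcl and at 5.62, 60.2 and 52.9 CPM in ByJcl. For comparison, the median within-substrain SD of log2 CPM was 0.16 over the 10049 genes of at least 10 CPM on average. The heat shock list as a whole had a median log2FC of -0.11, which ran from -0.80 to 0.22 over the alternatives.

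None of the tested members of the other lists was called by edgeR or DESeq2, and between 0 and 2 members of each had an unadjusted edgeR p below 0.05. Against 0.01 for all tested genes, the median log2FC was 0.13 for 20 glomerular endothelial genes, 0.23 for 16 mesangial and pericyte genes, 0.04 for 11 parietal epithelial genes, -0.13 for 10 smooth muscle and renin genes and -0.04 for 30 cytosolic ribosomal protein genes. It was 0.13 for 23 immediate early genes, which respond to tissue dissociation, 0.26 for 19 circadian clock genes, -0.03 for 20 targets of p53 and -0.10 for 3 erythroid genes. The medians of the mesangial and circadian lists were thus as high as those of the podocyte and matrix genes. The circadian members went both ways, with 13 above 0, 6 below and log2FC from -1.19 to 1.42. Over the alternatives the median ran from 0.05 to 0.20 for endothelial, 0.15 to 0.28 for mesangial, -0.24 to -0.04 for smooth muscle, 0.17 to 0.42 for circadian and -0.34 to -0.06 for erythroid genes. The medians of the parietal, ribosomal, immediate early and p53 lists changed sign under at least 1 alternative. Arntl, a core activator of the clock, was at 2.94, 3.37 and 6.45 CPM in AJcl and at 1.04, 2.37 and 2.17 CPM in ByJcl (log2FC -1.19, adjusted p = 0.583, edgeR), with no overlap.

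The Day 5 libraries came from other animals and gave a second measurement of the same substrain difference, after ADR. Their spread also entered the fit that called the 27 genes, so this measurement is not fully independent of the choice. Fitted to the baseline libraries alone, edgeR called 15 genes, 14 of them among the 27. The Day 5 libraries were counted in a separate table. All 11 libraries were fitted together. Each substrain contrast compared libraries of the same table, whereas the interaction given below crosses the tables. AJcl Day 5 had 2 libraries because the authors excluded replicate 1 for reduced glomerular purity. All 27 baseline calls had the same direction at Day 5, and the Day 5 libraries did not overlap for any of them. Over all tested genes, 55.0% had the same direction at both times, 33.4% had Day 5 libraries that did not overlap, and 19.2% had both. Of the 27, 14 (51.9%) were also called at Day 5, where 28 genes (0.165%) were called in all, 23 higher (0.135%) and 5 lower (0.0294%), so the shared genes are 50% of the Day 5 calls. Galk2 had a log2FC of 7.26 (SE 0.54) at baseline and 7.33 (SE 0.66) at Day 5, Otud3 -4.42 (SE 0.27) and -4.30 (SE 0.28), and Arl2bp -2.02 (SE 0.15) and -1.97 (SE 0.17).

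The absolute log2FC was smaller at Day 5 for 19 of the 27, with a median ratio of 0.91. Since the 27 genes were chosen by their baseline values, a smaller difference at Day 5 is no sign of a change by itself. Glp1r was at 4.43, 2.32 and 1.99 CPM in the ByJcl Day 5 libraries against 1.07 and 1.52 CPM in AJcl, and it was no longer called (log2FC 1.16, SE 0.38, adjusted p = 0.238, edgeR). H2-Q6 remained called with a smaller difference, at 4.81 and 4.42 CPM in AJcl and 0.266, 0.161 and 0.173 CPM in ByJcl (log2FC -4.51, SE 0.41). The pooled counts, scaled to TMM library size, gave a ratio of 23.03 for AJcl over ByJcl. Its exact interval, for counting error only, was 15.61 to 35.35. This interval also takes counts as independent and may be too narrow. The change in the difference between times was tested as an interaction. It had an unadjusted p of 0.00299 for Glp1r and 0.000369 for H2-Q6, and an adjusted p of 0.620 for both (edgeR). Over all tested genes, 0 interactions passed the threshold and 1363 had an unadjusted p below 0.05.

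**Figure D5:**
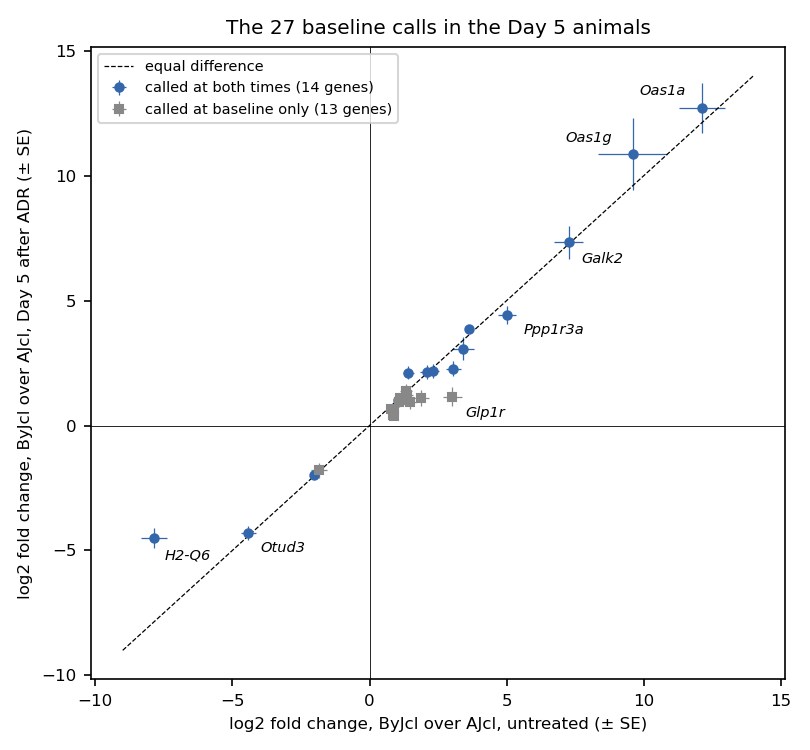
log2FC of ByJcl over AJcl in untreated libraries (x axis, ± SE) and in Day 5 libraries after ADR (y axis, ± SE) for the 27 baseline calls, with circles for the 14 called at both times, squares for the 13 called at baseline only and a dashed line of equal difference. All points lie in the quadrants of equal sign, and H2-Q6 and Glp1r lie nearer to 0 on the Day 5 axis.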

How the data were processed

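The deposited values are featureCounts counts per gene symbol, made by the authors after trimming (Trimmomatic) and alignment to GRCm39 (STAR), neither normalized nor pooled. The gene annotation and strand setting are not given in the sources used here. Of the counts from 1 to 49, between 77.1% and 79.0% were even numbers in the baseline libraries, so counts halved and rounded up were an alternative. Column letters A and B were matched to AJcl and ByJcl by the names in the sample labels.

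Counts were tested with edgeR 4.0.16 in R 4.3.3 (filterByExpr by group, TMM, glmQLFTest, 1 coefficient per group, 11 libraries). AJcl Day 5 replicate 1, which the authors excluded for purity, was left out. The fit had 7 residual degrees of freedom and a common dispersion of 0.0521. Of 26264 symbols, 9262 fell below the filter, 6375 of all symbols having 0 counts in each baseline library. All labels give batch 1, so no batch term was possible. Chi-square per degree of freedom between baseline replicates was 47.1 to 107, so no library repeated another. DESeq2 1.42.0, RLE factors, other filters, thinning, other sample sets, a proximal tubule covariate, a replicate block and leaving out each replicate were alternatives.

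Positions are from GENCODE vM39. Shared sequence is the share of 100-base transcript windows found in another gene. Promoters are RefSeq sequences. Genes named are the calls, genes on in one substrain only, the 10 strongest calls of DESeq2 alone, genes the study names, the strongest and most abundant member of each list, the 10 most variable genes and neighbours of calls. H2-T3, H2-T22, H2-K1, H2-Q7, Usp18, Ifit2, Ciita, Csf1r, Nlrp3 and Oas3 were named after their values were seen. The comparison, its lists and its rules were chosen with earlier results of these data known. Other steps ran in Python 3.11.15, with pandas 2.3.3 and matplotlib 3.10.9. Some genes that the rule for named genes covers are not reported here.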

Additional observations from a re-analysis of the deposited data

How the results depend on the processing

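The number of called genes depended most on the test and on single libraries. Against 27 calls (23 higher, 4 lower), DESeq2's Wald test called 101, 71 higher and 30 lower, of which 56 were also called at Day 5 in the same direction. Fitted to the baseline libraries alone, edgeR called 15 genes, 11 of them higher, and with all 12 libraries it called 19, 15 of them higher. With the proximal tubule covariate 10 genes were lower. Leaving out 1 replicate gave 12 to 27 calls, with 9 to 21 of them higher. The share of calls that were higher was 85.2%, and between 69.7% and 73.7% with DESeq2, the covariate, the baseline libraries alone and the block on replicate number. RLE factors, total counts as library size, 2 other filters, halved counts and thinning gave 24 to 30 calls. The median log2FC of the podocyte genes stayed between 0.10 and 0.34, and that of the matrix and integrin genes between 0.11 and 0.33. Of 1606 values of the 95 single genes followed here, 1457 kept their direction and side of the threshold, 117 lost a call, 31 gained one and 1 reversed, that of Oas3 without ByJcl replicate 2 (log2FC -0.34, and up to 0.95 without another replicate). The cause of these shifts was not tested.

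With the replicate number as a block, edgeR called 19 genes, 14 higher and 5 lower, 16 of them among the 27. Deviations of same-numbered AJcl and ByJcl libraries correlated at 0.079, -0.197 and 0.244 across genes, and not every library correlated best with its own number. No pairing by number was therefore assumed in the main fit. With 3 libraries per substrain, these values do not settle whether the numbers pair the libraries.

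Both the 3 libraries per substrain and depth limit the precision, and 3 counts correspond to at most 0.0689 CPM. The strand setting of the counting bears on overlapping genes on opposite strands, Fam227b and Dnah8 among them.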
